A study of Argopecten irradians irradians with 6 samples.

Results

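miR-281 and miR-46 were followed in small-RNA libraries of the bay scallop (Argopecten irradians irradians), made from the adductor muscle that pulls the shell shut. MicroRNAs (miRNAs) are short RNAs that pair with messenger RNAs through a seed near their 5′ end and lower the output of those messages. A hairpin precursor can give a mature miRNA from its 5′ arm (5p) and from its 3′ arm (3p), and usually 1 arm is far more abundant than the other. miR-281 is conserved widely among invertebrates and is best known from insects: it is abundant in the mosquito midgut, and in the silkworm it acts on the ecdysone receptor in the Malpighian tubules. miR-46 is the name of a nematode miRNA whose seed is the same as that of miR-281 3p. The members were all rows of the deposited count table whose name, after the species prefix, is miR-281 or miR-46 with any letter or arm. These were 31 of 5446 names, 28 of miR-281 and 3 of miR-46. Both families were picked because earlier work on these data had found them higher in orange muscle, so the difference between the muscles is given here as a description without a test.

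The libraries came from white muscle of the Bohai Red strain (3 libraries) and orange muscle of the QN Orange strain (3 libraries). From each strain 9 muscles were taken, and every 3 were pooled into 1 library. The spread within a group is therefore a spread between pools, and strain and muscle colour cannot be told apart. No treatment, age or other genotype is given in the labels beyond strain and colour. The columns carry only letters and numbers: B was read as Bohai Red and G as QN Orange, which is an inference, and every direction below rests on it. The deposited TPM table has further columns named BHR, BH and M, which were not used; the first 2 names could also be read as Bohai Red, so the letters do not settle the strain.

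The table counts the same reads under the names of many species. Column totals of 85674751 to 152002629 counts are sums over repeated names, whereas the most abundant row of each family summed to 2092859 to 4001568 counts per library. Levels are therefore given per 1000000 counts with 1 row per family, after TMM scaling (CPM). Different families can still hold the same counts, as Contig991_28408 and Contig991_28417 did, or nearly the same, as miR-31 and miR-72 did. Shares, ranks and numbers of families below may therefore still count some reads more than once. The scaling factors were 0.826 to 1.27, with white replicate 1 the highest. As a check of the tissue, the muscle miRNAs miR-1 and miR-133 were at 96790 to 204200 CPM and 194200 to 311800 CPM.

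The 31 names did not stand for 31 miRNAs. Of them, 2 names of miR-281 (dpu-miR-281 and tcf-miR-281-3p) were at 0 in all 6 libraries, and the other 29 held 15 distinct sets of counts. By arm, 19 names were 3p, 1 was 5p and 11 gave no arm. The prefixes were read as miRBase species codes, and levels were grouped after the values were seen.

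The core of the family was a block of 18 names, all of miR-281, whose summed counts lay within 1% of those of lgi-miR-281-3p, the name from the owl limpet Lottia gigantea. The block spans insects, a mite, molluscs, an annelid, amphioxus and a lamprey, and 11 of its names are 3p while 7 carry no arm. In the white libraries, replicates 1 to 3, lgi-miR-281-3p had 143, 277 and 415 counts. In the orange libraries it had 1931, 1414 and 5955 counts. Across the whole block the counts ran from 143 to 145 in white replicate 1 and from 5951 to 5981 in orange replicate 3, so these names cannot be read as separate miRNAs.

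A further 4 names held more counts than the block. The highest was cin-miR-281-3p, from the sea squirt Ciona intestinalis, with 238, 488 and 641 counts in white and 2816, 2255 and 9685 counts in orange replicates 1 to 3. Its counts were 1.46 to 1.76 times those of lgi-miR-281-3p in the same library, with a mean ratio of 1.66 ± 0.109 in white and 1.56 ± 0.0893 in orange muscle (SD, n = 3). The acorn worm name sko-miR-281 stayed closer to the block, at 1.03 to 1.09 times.

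The other 2 of these 4 were miR-46. The row asu-miR-46-3p, from the nematode Ascaris suum, had 163, 332 and 471 counts in white and 2116, 1643 and 6985 counts in orange replicates 1 to 3. Within a library it was at 1.10 to 1.20 times lgi-miR-281-3p. The second nematode row, prd-miR-46-3p, was at 1.03 to 1.08 times. Both of these miR-46 rows thus followed the miR-281 block to within a narrow band in every library.

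At the other end, 6 names were at 0.00699 to 0.0253 times lgi-miR-281-3p. Of these, 5 are flatworm names (egr-, emu-, sma- and gsa-miR-281-3p and fhe-miR-46), and the remaining one is csa-miR-281 from a second sea squirt. The third miR-46 name, fhe-miR-46 of the liver fluke, had the same counts as egr-miR-281-3p and sma-miR-281-3p in all 6 libraries: 1, 7 and 3 in white and 17, 15 and 57 in orange replicates 1 to 3. With at most 7 counts in any white library, ratios for these names are coarse. Of the 2 sea squirt names, one was thus the highest of all 31 and the other among the lowest that were detected.

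**Figure D1:**
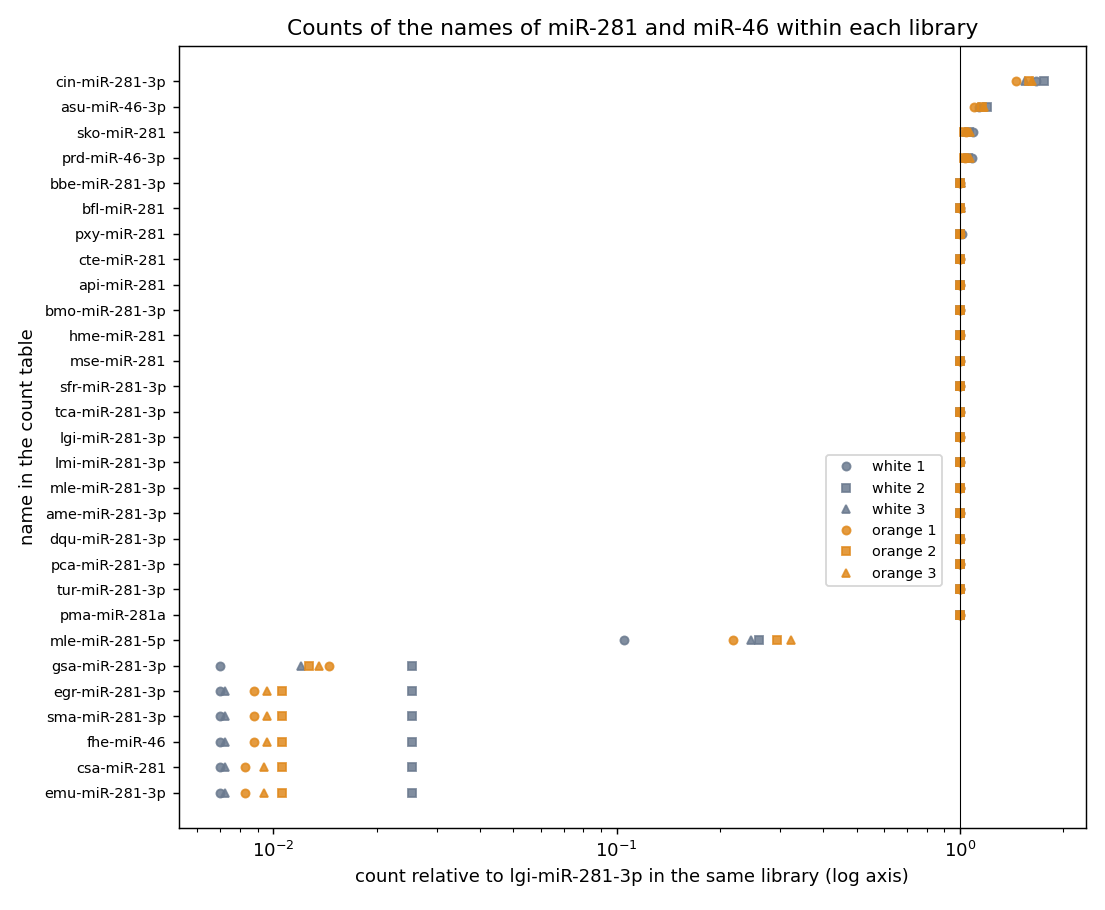
Count of each of the 29 detected names of miR-281 and miR-46 divided by the count of lgi-miR-281-3p in the same library, on a log axis; circles, squares and triangles are replicates 1 to 3, grey for white and orange for orange muscle. A block of 18 names sits at 1, cin-miR-281-3p at 1.46 to 1.76, the 5p name at 0.105 to 0.321, and 6 names at 0.00699 to 0.0253.

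miR-281 was much more abundant in orange than in white muscle. Represented by its highest row, cin-miR-281-3p, it was at 46.8, 155 and 209.5 CPM in white replicates 1 to 3 and at 663, 1305 and 2771 CPM in orange replicates 1 to 3. The lowest orange library lay 3.17 times above the highest white one, so the groups did not overlap. The means were 137 ± 82.8 CPM in white and 1580 ± 1080 CPM in orange muscle (SD, n = 3), with a fitted difference of 3.53 on the log2 scale (SE 0.780, edgeR), or 11.5-fold. In bulk muscle pools, more cells of a type that carries miR-281 and more miR-281 per cell cannot be told apart.

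miR-46, represented by asu-miR-46-3p, showed the same order of libraries. It was at 32.1, 105 and 154 CPM in white and at 498, 951 and 1998 CPM in orange replicates 1 to 3. The means were 97.1 ± 61.4 CPM and 1149 ± 769 CPM (SD, n = 3), a fitted log2 difference of 3.56 (SE 0.798). The median of the 143 families that could be tested was itself at 0.13, and relative to it the differences were 3.40 for miR-281 and 3.44 for miR-46.

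In rank, miR-281 was between 62nd and 37th of the 143 families in the white libraries and between 29th and 14th in the orange ones, where orange replicate 3 had it highest. It made up 0.00595% to 0.0202% of the counts in white and 0.0749% to 0.262% in orange libraries, with 1 row per family. It was thus a minor miRNA of the muscle in both strains, far below miR-1 and miR-133.

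All 15 distinct sets of counts had non-overlapping groups with orange higher, among them the 3 that stayed at or under 7 counts in white muscle. Over all 143 families the groups did not overlap with orange higher in 18.9% and with orange lower in 17.5%. By the edgeR test, 4.20% of the families (6 of 143) were called higher and 4.20% lower at an adjusted p of 0.05, or 3 higher and 6 lower with DESeq2 size factors. The 18.9% and the 6 called higher by the main fit include miR-281 and miR-46 themselves. The members were chosen on this contrast and repeat each other's reads, so nothing is read from their count. The ratio of the orange to the white mean ran from 8.37 for csa-miR-281 to 15.0 for the 5p name, with 11.8 for lgi-miR-281-3p.

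**Figure D2:**
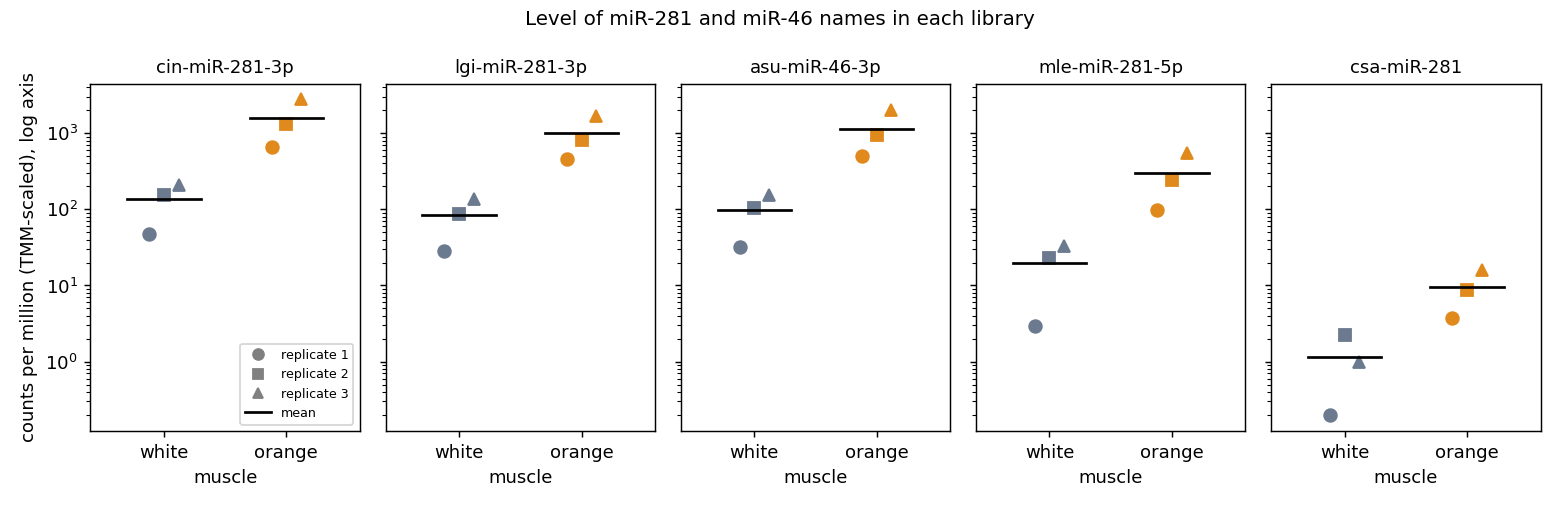
Level in CPM (TMM-scaled, log axis) of cin-miR-281-3p, lgi-miR-281-3p, asu-miR-46-3p, mle-miR-281-5p and csa-miR-281 in each library; circles, squares and triangles are replicates 1 to 3 and the black line is the group mean. In each panel the 3 orange libraries lie above the 3 white ones, with white replicate 1 and orange replicate 1 lowest in their groups.

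Pools of the same strain differed widely. For cin-miR-281-3p the coefficient of variation between pools was 60.4% in white and 68.4% in orange muscle. Orange replicate 3 was 2.82 times the mean of the other orange libraries, and white replicates 2 and 3 together averaged 3.89 times white replicate 1. Without orange replicate 3 the fitted fold of miR-281 was 7.33 and that of miR-46 was 7.60. The fold of miR-46 was 18.4 without white replicate 3, against 11.8 with all libraries.

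The libraries numbered 1 stood apart in other miRNAs as well. White replicate 1 held 390 CPM of the sensory-cell miRNA miR-183, where white replicates 2 and 3 held 54.6 and 46.7 CPM. Orange replicate 1 held 601 CPM of the neural miR-124, where orange replicates 2 and 3 held 12.2 and 11.7 CPM. The neural miR-9 and miR-137 were also highest there among the orange libraries. The neural miR-7 (601, 639 and 323 CPM in orange replicates 1 to 3) and miR-153 (83.1, 99.0 and 42.3 CPM) were not. Both libraries numbered 1 were the highest of their group in miR-8 and miR-263. With both libraries numbered 1 left out, the log2 difference of miR-281 was 3.44 and that of miR-46 was 3.46, close to the values with all 6.

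Only 1 name gave the 5p arm, mle-miR-281-5p, from the sea slug Melibe leonina, which also has a 3p name in the block. Its counts were 15, 72 and 102 in white and 421, 415 and 1913 in orange replicates 1 to 3. Like the 3p names it was higher in every orange library, at 2.95 to 33.3 CPM in white and 99.1 to 547 CPM in orange muscle. Counts on 3p exceeded those on 5p in all 6 libraries.

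The balance of the arms can be followed within a library, where no scaling between libraries enters. Of the counts on both mle names, 5p held 9.49% in white replicate 1 (95% Wilson interval 5.84% to 15.1%), 20.6% (16.7% to 25.2%) in replicate 2 and 19.7% (16.5% to 23.4%) in replicate 3. In orange muscle the shares were 17.9% (16.4% to 19.5%), 22.7% (20.8% to 24.7%) and 24.3% (23.4% to 25.3%) in replicates 1 to 3. These intervals cover counting error only. White replicate 1 had the lowest share, with an interval below those of the other 5 libraries. The shares of the groups overlapped with or without it, since white replicates 2 and 3 lay above orange replicate 1.

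**Figure D3:**
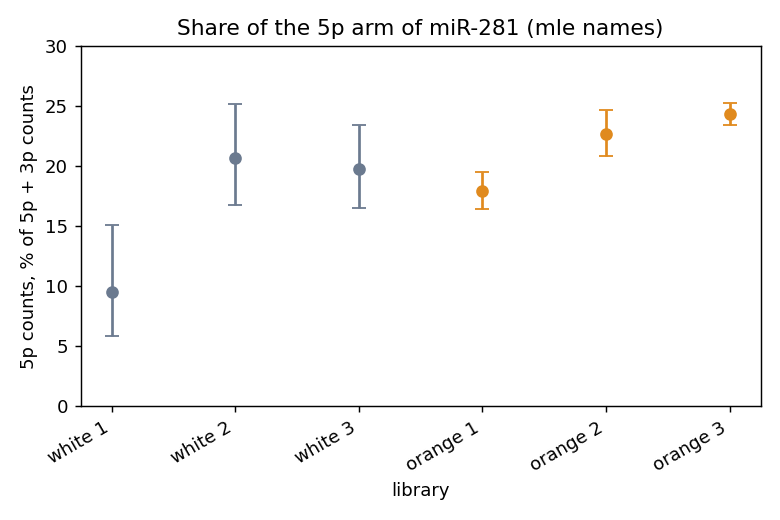
Share of 5p in the summed 5p and 3p counts of the mle names of miR-281 in each library, in percent; points are libraries and bars are 95% Wilson intervals for counting error. White replicate 1 lies at 9.49%, and the other 5 libraries lie between 17.9% and 24.3%.

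With the most abundant row of each arm, the log2 ratio of 3p to 5p was 3.94, 2.75 and 2.65 in white and 2.74, 2.44 and 2.34 in orange replicates 1 to 3. The means were 3.11 ± 0.72 in white and 2.51 ± 0.21 in orange muscle (SD, n = 3), a difference of -0.61 (exact two-sided permutation p = 0.2). The smallest p that 3 against 3 libraries allow is 0.1, so no difference could pass 0.05. Without white replicate 1 the difference was -0.19, so most of it rested on that library, whose 5p value came from 15 counts.

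The ratio of miR-46 to miR-281 within a library is given as a description without a test, since both families were picked on the same contrast and their rows may repeat the same reads. The counts of asu-miR-46-3p were 68.5%, 68.0% and 73.5% of those of cin-miR-281-3p in white and 75.1%, 72.9% and 72.1% in orange replicates 1 to 3. On the log2 scale the means were -0.51 ± 0.06 and -0.45 ± 0.03 (SD, n = 3), a difference of 0.07. With lgi-miR-281-3p in place of the cin name, a choice made after the values were seen, the difference was -0.018.

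Which other miRNAs varied in the same way was described by the root mean square difference of log2(CPM + 0.5) over the 6 libraries, after each family was centred on its own mean. miR-46 lay 0.05 from miR-281, where the median of all other families lay at 2.11. Both were picked as raised in orange muscle and may share reads, so their closeness was largely set by that choice and is no separate finding. Among the other families the 5 nearest were all predicted miRNAs known only by a contig and a number, and the same 5 were nearest to miR-46. The distance includes the difference between the muscles, for which miR-281 was picked. Nearness of other families higher in orange muscle was therefore largely set by that choice too.

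The nearest, at 0.31, was Contig428_16695. It had 182, 483 and 687 counts in white and 1651, 2303 and 9571 counts in orange replicates 1 to 3, close to cin-miR-281-3p in absolute number as well. Its counts were 0.99 and 1.07 times those of cin-miR-281-3p in white replicates 2 and 3 and 1.02 and 0.988 times in orange replicates 2 and 3. In the libraries numbered 1 they were lower, at 0.765 times in white and 0.586 times in orange. Next, at 0.62, came Contig428_16698, a prediction on the same contig, with 5, 23 and 22 counts in white and 48, 45 and 141 in orange replicates 1 to 3.

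Of the 7 predictions on Contig428, the other 5 did not share this pattern as closely. Contig428_16798 had 8, 18 and 28 counts in white and 43, 13 and 43 in orange replicates 1 to 3, and its CPM values overlapped between the groups. The remaining 4 had at most 12 counts in any library. The files used here do not tie these predictions to a named miRNA, and a shared contig and pattern are given only as a description.

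Contig179_7833 followed at 0.62, with 27, 18 and 20 counts in white and 182, 115 and 765 in orange replicates 1 to 3. It shared the high orange replicate 3 with miR-281, where it was at 219 CPM against 42.9 and 66.6 CPM in orange replicates 1 and 2. It did not share the low white replicate 1, with 5.31, 5.72 and 6.54 CPM in the white libraries. Contig2385_35801, at 0.85, had at most 1 count in a white library and 8 to 43 in the orange ones. Contig416_15771, at 0.86, had 13 to 63 counts in white and 69 to 162 in orange libraries.

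**Figure D4:**
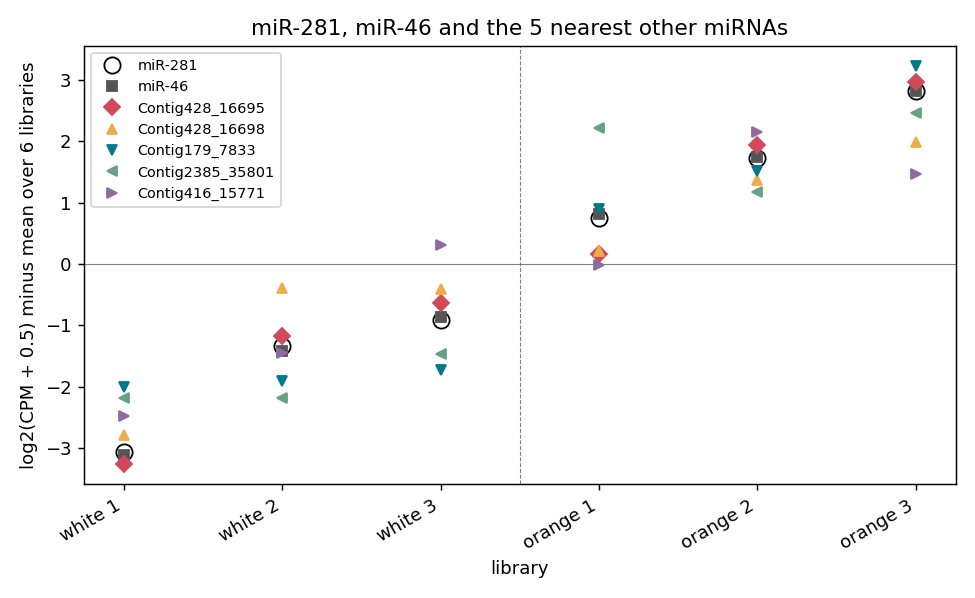
Level of miR-281, miR-46 and the 5 nearest other miRNAs in each library, as log2(CPM + 0.5) minus the miRNA's mean over the 6 libraries; the dashed line separates white from orange libraries. miR-46 lies on miR-281 throughout, and Contig428_16695 departs from it mainly in orange replicate 1.

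The nearest family with a conserved name was miR-375, at 0.94, which is known from gut endocrine cells and pancreatic islets of vertebrates. Because miR-281 is a midgut miRNA in mosquitoes, a list of gut and digestive gland miRNAs was set beside it. Of its 9 families, 3 were tested and 0 passed the threshold by edgeR in either direction, with 1 (miR-375) at an unadjusted p under 0.05, which 27.3% of all 143 families reached. DESeq2, which called 22.4% of all families, called miR-375 higher and miR-216 lower. miR-375 was at 7.28, 8.58 and 15.0 CPM in white and 17.4, 30.1 and 125 CPM in orange replicates 1 to 3. Its fitted log2 difference was 2.49 (SE 0.857, edgeR adjusted p = 0.144). Its groups did not overlap, and orange replicate 3 was highest, as for miR-281.

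miR-194, an intestinal and liver miRNA of vertebrates, was at 1.77 to 5.72 CPM in white and 8.24 to 14.9 CPM in orange libraries, with a fitted log2 difference of 1.45 (SE 0.662, edgeR adjusted p = 0.216). miR-216, which is abundant in the vertebrate pancreas, was the other way round, at 2489 to 2940 CPM in white and 1165 to 2441 CPM in orange libraries (fitted log2 difference -0.74, SE 0.369, edgeR adjusted p = 0.247). The median log2 difference of these 3 was 1.45, against 0.13 for all families. Their summed level was 2508 to 2955 CPM in white and 1191 to 2480 CPM in orange libraries, nearly all of it miR-216.

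The liver miRNA miR-122 had at most 1 count in white libraries and 0, 1 and 12 counts in orange replicates 1 to 3, and the intestinal miR-192 and miR-215 had at most 4 counts in any library. The listed miR-217, miR-275 and miR-305 had no name among the counts, so they could not be looked at. The part of gut or digestive gland tissue in the level of miR-281 was not tested.

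**Figure D5:**
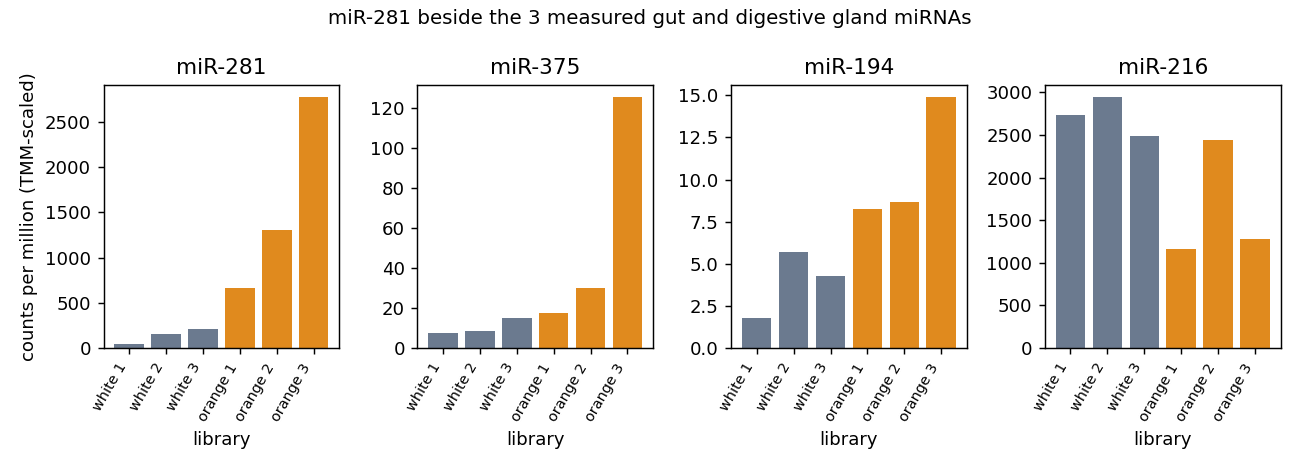
Level in CPM (TMM-scaled, linear axes that start at 0 and differ between panels) of miR-281, miR-375, miR-194 and miR-216 in each library; grey bars are white and orange bars are orange muscle. miR-375 shares the high orange replicate 3 with miR-281, at 125 CPM, whereas miR-216 is lower in the orange libraries.

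The other lists of cell types and of growth were read for the same purpose. Over all lists, 19 of 35 families were tested and 0 passed by edgeR. Of the rest, 5 had no name among the counts. At an unadjusted p under 0.05 by edgeR there were 3 of the 19 (let-7, miR-100 and miR-375), and DESeq2 called 2 of the 19, miR-375 and miR-216. Neither count is above the share over all families, 27.3% and 22.4%. The abundant bantam row, mle-bantam-3p, was held by its name as a separate family outside the 19. It had an unadjusted p of 0.021 by edgeR. The 2 muscle miRNAs had log2 differences of -0.52 (miR-1, SE 0.260) and -0.14 (miR-133, SE 0.255), neither of them past the threshold (edgeR adjusted p = 0.248 and 0.756).

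Of the 4 epithelial and sensory families tested, 2 were above 0 (median log2 difference -0.08), with summed levels of 1572 to 7463 CPM in white and 2368 to 4788 CPM in orange libraries. Of 5 neural families 4 were above 0 (median 0.74), with sums of 613 to 630 CPM in white and 387 to 1366 CPM in orange libraries. For miR-124 and miR-137 the positive sign rested on orange replicate 1. In orange replicates 2 and 3 miR-124 was at 12.2 and 11.7 CPM, below its 18.9 to 22.6 CPM in white libraries. There miR-137 was at 0 and 0.286 CPM, against 0.98 to 4.45 CPM in white libraries. By library, replicates 1 to 3, the neural sums were 630, 615 and 613 CPM in white and 1366, 755 and 387 CPM in orange. The epithelial and sensory sums were 7463, 1572 and 1599 CPM in white and 4788, 2368 and 2789 CPM in orange. The part of such cells in the level of miR-281 was not tested.

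miR-34, of ciliated cells, was at 127 to 148 CPM in white and 177 to 272 CPM in orange libraries (log2 difference 0.67, SE 0.445). In the growth and timing list, which holds let-7, miR-100, miR-125 and bantam, 3 of 4 families were above 0, with a median of 0.69. Bantam stood there as the scarce row cte-bantam, with a log2 difference of -0.19. The far more abundant mle-bantam-3p was at 4479 to 6134 CPM in white and 1728 to 3745 CPM in orange libraries. Its groups did not overlap, with a log2 difference of -1.07 (SE 0.369, edgeR adjusted p = 0.144). Of the immune list no family passed the filter: miR-146 was at 0 in all libraries, and miR-21 and miR-155 had at most 4 counts. miR-47, a nematode miRNA with the seed of miR-46, had 1 name in the table, which was at 0 in all 6 libraries.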

How the data were processed

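Small RNAs were measured in 6 pooled adductor muscle libraries. The authors deposited whole-number counts per miRNA name and a TPM table, in which a deposited TPM is the count scaled to a column sum of 1000000 (largest deviation 5.00e-05); 9 further TPM columns of per-sample values were not used. Trimming, aligner and miRNA reference are not given in the sources used here. Sequences were not used. P-values measure the spread between pools of muscles.

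Rows were assigned to families by name, and 1 row per family (highest mean count) was fitted with edgeR 4.0.16 in R 4.3.3 (TMM, filterByExpr, robust quasi-likelihood), with Benjamini-Hochberg adjustment over 143 families (63 named, 80 predicted). By this naming, bantam-3p names formed a family apart from bantam, and both are among the 143. SE is the log2 difference divided by the square root of F. Ratios used a pseudocount of 0.5, and the arm ratio an exact permutation test (SciPy 1.17.1); the test planned for the ratio of miR-46 to miR-281 is not read. Fits were tested on simulated data. The alternative test was DESeq2 1.42.0. The plan was to name the member profiles, the listed families and the 5 nearest families. Most profiles within the block are given only by their range of counts, and not every listed family is named. Contig428 predictions, miR-375 as the nearest conserved name, and library comparisons were added after values were seen. Members and lists were chosen with earlier results of these data known.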

Additional observations from a re-analysis of the deposited data

How the results depend on the processing

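The log2 differences of miR-281 and miR-46 kept their sign, and moved by less than the spread between pools, under all alternatives run: 3.35 to 3.79 and 3.38 to 3.79 over other scalings, filters, tools and sums over names, and 2.87 to 4.11 and 2.93 to 4.20 when 1 library was left out. Non-overlapping groups fix this sign, so it is no sign of stability. The number of families called was 12 of 143 tested. It was 20 of 143 with library totals, 29 of 492 without a filter, 32 of 143 by DESeq2 and 19 of 140 without both libraries numbered 1. It ranged from 0 to 20 when 1 library was left out, with 0 without white replicate 2, 0 without white replicate 3 and 20 without white replicate 1; the cause was not tested. The log2 ratio of miR-46 to miR-281 turned to -0.013 with sums over distinct count profiles and to -0.018 with lgi-miR-281-3p, and was 0.05 to 0.10 when 1 library was left out; the cause was not tested. That of 3p to 5p was -0.46 to -0.61 over other settings and -0.84 to -0.19 when 1 library was left out. Same-numbered libraries deviated together with correlations of 0.20, -0.02 and 0.16, so the numbers were not taken to pair them. With the replicate block, miR-281 was at 3.54 and miR-46 at 3.61 with 13 families called (9 higher, 4 lower). The ratios stay at -0.61 and 0.07 by arithmetic, since the mean of paired differences equals the difference of means. For 3p to 5p, an exact permutation of signs over the 3 pairs gave p = 0.25, the smallest that it allows. Depth limits the 6 low names, which had at most 7 counts in any white library.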
